A study of Sus scrofa with 6 samples.

Results

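The B cell identity genes are a set of 9 genes that mark B lymphocytes, and 6 of them (MS4A1, CD79A, CD79B, CR2, BLK and CD40) were found by gene symbol among the 11564 genes of the deposited table. CD22 had no symbol there and was found through its Ensembl identifier, so it is described beside the 6 and is not counted with them. PAX5 and BANK1 are not analysed here. RNA-seq libraries came from the peripheral blood mononuclear cells (PBMCs, the lymphocytes and monocytes of blood) of 6 pigs at 6 months of age. Of these, 3 were labelled WT and 3 Leptin-overexpressing. The transgenic leptin pigs were made by nuclear transfer from fetal fibroblasts carrying a pig leptin open reading frame under the pig leptin promoter, and the controls were nontransgenic pigs. The donor fetus was a Yorkshire male, and the labels give no sex for the 6 pigs. Whether the 3 transgenic pigs derive from 1 transfected cell is not given in the sources used here. Values are FPKM, in which fragment numbers are divided by the length of the gene's transcript and by the size of the library, so levels of different genes can be set side by side.

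B cells are the lymphocytes that make antibody. They see antigen through the B cell receptor, a surface antibody held by the CD79A and CD79B chains, whose cytoplasmic tails are phosphorylated by Src family kinases such as BLK and LYN and then recruit SYK, BLNK, BTK and PLCG2. MS4A1 encodes CD20. CR2 encodes the complement receptor CD21, which lowers the threshold of the receptor when antigen carries complement, and CD22 is an inhibitory co-receptor that binds sialic acid. CD40 receives help from T cells that carry CD40LG, and it is also found on monocytes and dendritic cells. In lupus, B cells are the source of autoantibodies, and the study also counted CD21+ B cells by flow cytometry.

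The FPKM values summed to between 444888 and 503140 per library, and the depth of each library is unknown because no read counts are held in FPKM. The labels were compared on log2(FPKM + 1) values by limma, leaving out genes that reached 1 FPKM in fewer than 3 libraries. This filter kept 10735 genes, all 6 members among them. LEP, read as a check of the labels, was at 50.0, 0 and 0.118 FPKM in WT replicates 1, 2 and 3 and at 0, 18.3 and 39.3 FPKM in Leptin-overexpressing replicates 1, 2 and 3. The LEP values of both replicate 1 libraries go against their labels, so the label differences of the members and the medians of the B cell lists are given with all 6 libraries and without these, and WT and Leptin-overexpressing stand throughout for the libraries so labelled. The labels give each replicate only a number and a short code, and p-values measure the spread between these 6 animals.

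At the label level none of the 6 members showed a difference larger than the spread between libraries. None of the 6 members had an adjusted p under 0.05 in limma (0 of 6, against 0.00932% of all genes tested) and none had an unadjusted p under 0.05 (0 of 6, against 3.18%). The counts were also 0 with each gene's own variance. No member separated the 3 WT libraries from the 3 Leptin-overexpressing libraries (0 of 6), where 7.63% of all genes tested did. The median log2 fold change of the 6 members was 0.060, beside 0.059 over all genes tested, and with median-of-ratios scaling it was -0.0056 beside 0.0022. The larger pattern was between libraries: 5 of the 6 members had their lowest value in WT replicate 1, the library that also held the lowest value of 37.5% of all genes tested. In bulk RNA, fewer B cells and less RNA per B cell cannot be told apart.

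CD79A and CD79B, the signalling chains of the B cell receptor, were the most abundant of the set. CD79A (ENSSSCG00000003041, chromosome 6 from 46049092 to 46063418, positions as deposited) was at 133, 248 and 224 FPKM in WT replicates 1, 2 and 3 and at 232, 181 and 198 FPKM in Leptin-overexpressing replicates 1, 2 and 3. WT replicate 1 was lowest, and the groups overlapped because the highest and the lowest value were both WT. The group means were 202 ± 60.9 (SD, n = 3) and 204 ± 26.04 (SD, n = 3) FPKM, and limma gave a log2 fold change of 0.059 (95% interval -0.51 to 0.63) with an adjusted p of 0.993. CD79B (ENSSSCG00000017283, chromosome 12 from 15044351 to 15047832) was at 102, 189.7 and 188 FPKM in the WT libraries and at 196, 189.7 and 164 FPKM in the Leptin-overexpressing libraries, in replicate order. Only WT replicate 1 stood apart, and the other 5 lay within 164 to 196 FPKM. The CD79B log2 fold change was 0.25 (95% interval -0.33 to 0.83, adjusted p = 0.993, limma).

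**Figure D1:**
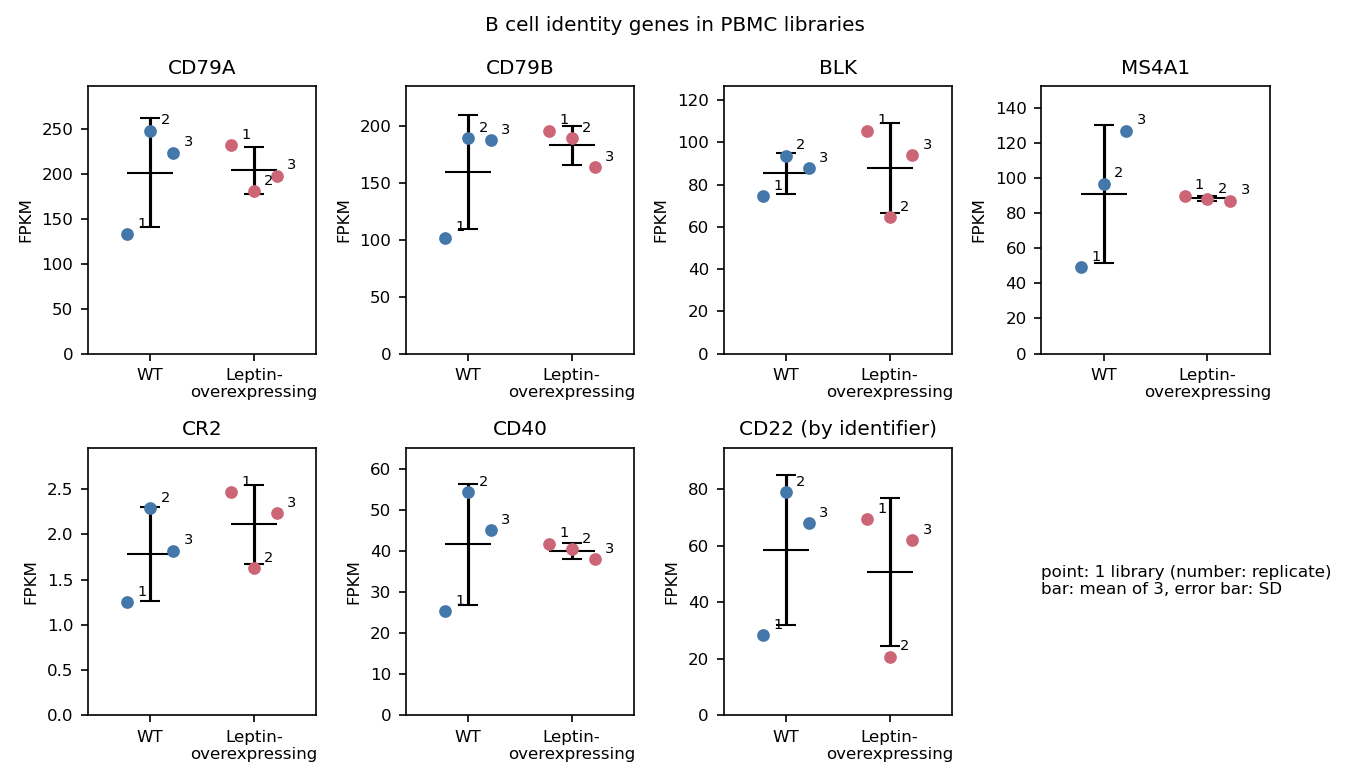
FPKM of the 6 B cell identity genes and of CD22 in each library, WT in blue and Leptin-overexpressing in red, with the mean and SD of 3 libraries and the replicate number beside each point. WT replicate 1 is the lowest point for CD79A, CD79B, MS4A1, CR2 and CD40, and Leptin-overexpressing replicate 2 is the lowest for BLK and CD22.

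BLK, the Src family kinase of B cells, followed another order. BLK (ENSSSCG00000027568, chromosome 14 from 15915884 to 15933527) was at 74.6, 93.8 and 87.7 FPKM in the WT libraries and at 106, 64.5 and 94.0 FPKM in the Leptin-overexpressing libraries. Here Leptin-overexpressing replicate 2 was lowest and WT replicate 1 second lowest, and all 3 WT values lay inside the range of the other label. Its log2 fold change was 0.020 (95% interval -0.46 to 0.50, adjusted p = 0.998, limma).

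MS4A1, which encodes CD20, varied most of the 6 members. MS4A1 (ENSSSCG00000021812, chromosome 2 from 10774612 to 10787896) was at 49.3, 97.1 and 127 FPKM in the WT libraries, a span of 2.58-fold, and at 90.1, 88.2 and 87.3 FPKM in the Leptin-overexpressing libraries. The Leptin-overexpressing values lay close together and between the WT values. Its mean FPKM was 91.2 ± 39.3 (SD, n = 3) in WT and 88.5 ± 1.46 (SD, n = 3) in Leptin-overexpressing, while its mean on the log2 scale was higher in Leptin-overexpressing by 0.061 (95% interval -0.66 to 0.78, adjusted p = 0.996, limma), so the sign depends on the scale and also turns with other scalings between libraries.

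CR2 and CD40 receive signals from complement and from T cells. CR2 (ENSSSCG00000028674, chromosome 9 from 74459182 to 74498657), the gene of CD21, was the lowest of the set at 1.25, 2.29 and 1.82 FPKM in the WT libraries and 2.47, 1.63 and 2.24 FPKM in the Leptin-overexpressing libraries. Its values were just above the filter of 1 FPKM, and the groups overlapped. The log2 fold change of CR2 was 0.17 (95% interval -0.27 to 0.61, adjusted p = 0.993, limma), a scale on which the pseudocount of 1 understates changes at such a level. CD40 (ENSSSCG00000007440, chromosome 17 from 53931893 to 53943334) was at 25.3, 54.4 and 45.1 FPKM in WT and at 41.8, 40.5 and 37.9 FPKM in Leptin-overexpressing. As for MS4A1, the 3 Leptin-overexpressing values lay between the lowest and the second lowest WT value, and the log2 fold change was 0.013 (95% interval -0.59 to 0.62, adjusted p = 0.998, limma).

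CD22 (ENSSSCG00000002893, chromosome 6 from 40346631 to 40351144) had the widest range, 3.82-fold between its extremes. It was at 28.3, 79.0 and 68.0 FPKM in the WT libraries and at 69.3, 20.7 and 62.0 FPKM in the Leptin-overexpressing libraries. Each label thus held 1 low library, WT replicate 1 and Leptin-overexpressing replicate 2, and 2 libraries between 62.0 and 79.0 FPKM. The log2 fold change was -0.25 (95% interval -1.43 to 0.93, adjusted p = 0.993, limma), and it turned to 0.29 without Leptin-overexpressing replicate 2 and to 0.026 without WT replicate 2. Without WT replicate 1 it was -0.70 (95% interval -1.88 to 0.48), and without both replicate 1 libraries -1.01 (95% interval -2.23 to 0.22), where both Leptin-overexpressing values lay under both WT values. In that setting the groups of 25.9% of genes tested did not overlap in either direction. Exact two-sided permutation tests over the 6 libraries gave p from 0.6 to 1 for the 6 members and 0.6 for CD22, where 3 libraries against 3 can give no p below 0.1.

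The order of levels was nearly the same in every library. CD79A exceeded CD79B in 5 of 6 libraries, the exception being Leptin-overexpressing replicate 2, and CD79B exceeded MS4A1 and BLK in 6 of 6. MS4A1 and BLK were not ordered, since MS4A1 was the higher in 3 of 6 libraries. CD40 lay under BLK in 6 of 6 and CR2 under CD40 in 6 of 6. CD22 exceeded CD40 in 5 of 6 libraries.

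Set against CD79A within the same library, CD40 held the steadiest proportion, from 18.0% to 22.4% of the CD79A level. MS4A1 ranged from 37.2% to 56.9%, CD79B from 76.4% to 105%, and CR2 from 0.813% to 1.13%. BLK was at 56.3% of CD79A in WT replicate 1 and at 35.6% in Leptin-overexpressing replicate 2. CD22 lay between 29.9% and 31.8% in 4 libraries, with lower proportions in WT replicate 1 (21.3%) and in Leptin-overexpressing replicate 2 (11.4%). The CD22 row was therefore the one whose proportion to CD79A varied most, 2.78-fold, against 1.24-fold to 1.58-fold for the other 5.

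The shared part of the pattern was the low level in WT replicate 1. On the log2 scale with each gene centred on its own mean, the mean of the 6 members was -0.55 in that library, 0.23 and 0.17 in WT replicates 2 and 3, and 0.19, -0.077 and 0.032 in Leptin-overexpressing replicates 1, 2 and 3. In FPKM, WT replicate 1 was under the median of the other 5 libraries by a factor of 1.83 for MS4A1, 1.69 for CD79A, 1.86 for CD79B, 1.80 for CR2, 1.65 for CD40 and 1.26 for BLK. With median-of-ratios scaling between libraries these factors were 1.68, 1.43, 1.59, 1.58, 1.5 and 1.10.

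**Figure D2:**
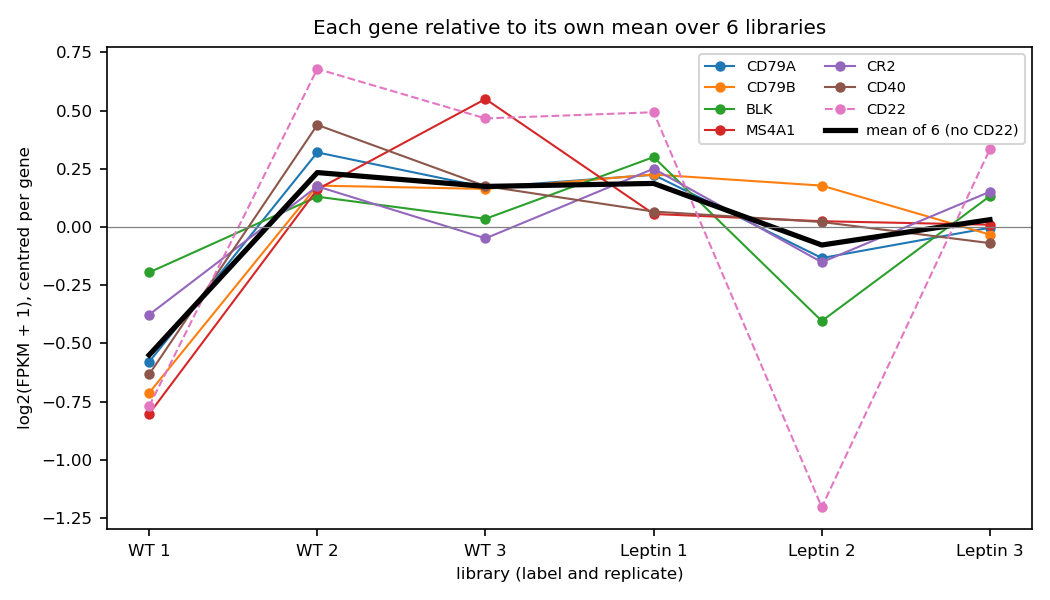
Log2(FPKM + 1) of each gene minus its own mean over the 6 libraries, by library, with the mean of the 6 members in black and CD22 dashed. The mean profile is lowest in WT 1, at -0.55, and CD22 drops to -1.20 in Leptin-overexpressing replicate 2, where the mean of the members is -0.077.

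The sign of the label difference changed with the libraries left out. All 6 members had a log2 fold change above 0 with all libraries, as 63.1% of all genes tested did, although MS4A1, CD79A, BLK and CD40 went below 0 with median-of-ratios scaling or with every library scaled to the same FPKM total. Without WT replicate 1, 5 of 6 were below 0 (48.4% of genes tested), with a median of -0.14 beside 0.0066 over all genes tested, and CR2 was at 0.021. In that setting without WT replicate 1, MS4A1 and CD40 had all 3 Leptin-overexpressing values under both remaining WT values (2 of 6 members without overlap, against 14.4% of genes tested in either direction), with log2 fold changes of -0.33 (95% interval -0.73 to 0.076) and -0.30 (95% interval -0.67 to 0.070). Without both replicate 1 libraries, 6 of 6 were below 0 (56.8% of genes tested), with a median of -0.27 beside -0.032 over genes tested. CD79A, MS4A1 and CD40 were then lower without overlap (3 of 6, against 25.9% of genes tested without overlap in either direction). Other single libraries also turned a sign: without Leptin-overexpressing replicate 1, CD79A was at -0.039, BLK at -0.13 and CD40 at -0.017, and without Leptin-overexpressing replicate 3, BLK was at -0.042. In neither of the settings without replicate 1 libraries did a member reach an unadjusted p under 0.05 in limma (0 of 6 without WT replicate 1, against 2.55%, and 0 of 6 without both, against 2.32%), none was among the genes with an adjusted p under 0.05 (0.0094% of genes tested without WT replicate 1 and 0% without both), and the adjusted p of every member was 0.999 or above.

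**Figure D3:**
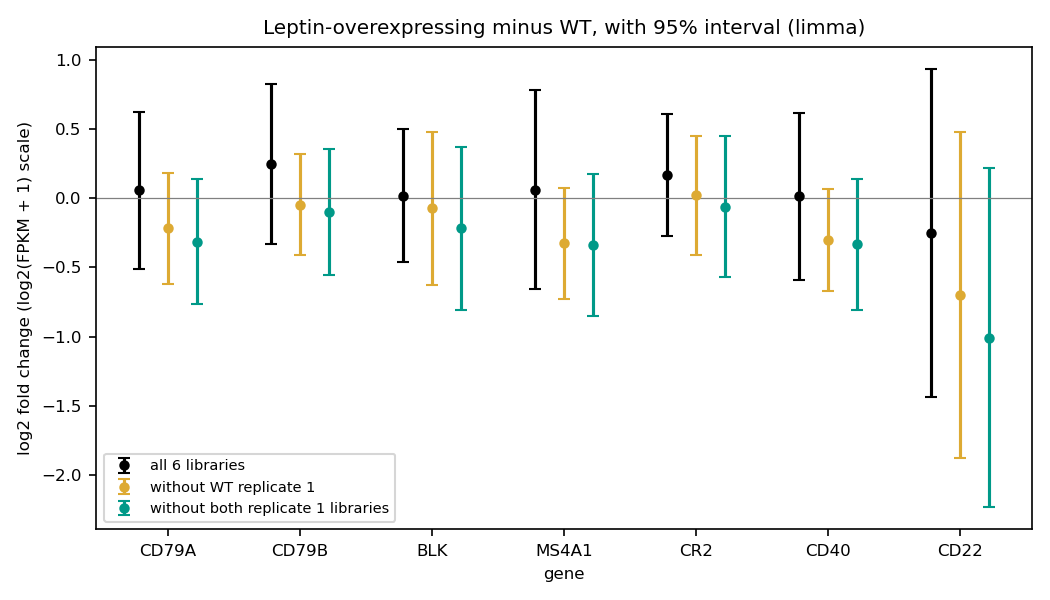
Log2 fold change of each gene, Leptin-overexpressing minus WT on the log2(FPKM + 1) scale, with its 95% interval from limma, for all 6 libraries (black), without WT replicate 1 (yellow) and without both replicate 1 libraries (green). Every interval crosses 0. With all libraries the estimates of MS4A1, CD79A, BLK and CD40 are close to 0, and their sign changes with scaling. CD79B (0.25), CR2 (0.17) and CD22 (-0.25) lie further from 0. Every estimate lies lower without WT replicate 1.

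The label of the set was checked against other B cell genes. Of 25 further B cell markers, 15 were found by symbol and 2 by identifier, and none of these 17 was at 0 in any library. Like the members, 11 of the 17 were lowest in WT replicate 1, and their summed FPKM was 124.8 there, 247 and 233 in WT replicates 2 and 3, and 208, 186 and 197 in the Leptin-overexpressing libraries. FCER2, the low-affinity IgE receptor, was at 0.912 FPKM in WT replicate 1 and at 1.75 to 4.59 FPKM in the other 5 libraries. The 17 markers had a median log2 fold change of 0.065, beside 0.059 over all genes tested. Of them 11 were above 0 and 6 below, where 63.1% of genes tested were above 0. In limma 0 had an adjusted p under 0.05 (against 0.00932% of genes tested) and 0 an unadjusted one (against 3.18%). Without both replicate 1 libraries the median of the 17 was -0.30, beside -0.032 over all genes tested. There 10 of the 17 were lower and 1 higher without overlap, against 25.9% of genes tested in either direction. Without WT replicate 1 the median of the 17 was -0.24, beside 0.0066 over all genes tested, with 12 below 0 (against 48.4%). Of the 17, 7 were then lower without overlap (against 14.4% of genes tested in either direction). In that setting 3 of the 17, VPREB3 and FCRL4 among them, had an unadjusted p under 0.05 in limma, against 2.55% of genes tested. None of the 17 had an adjusted p under 0.05 in limma there, against 0.0094% of genes tested. VPREB3, a partner of the immature receptor, and FCRL4, an Fc receptor-like protein, were then at log2 fold changes of -0.49 and -0.50, and both were singled out after their values were seen. With all 6 libraries they were at -0.22 and -0.38, and VPREB3 was at -0.024 without WT replicate 2.

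Markers of other blood cells also differed between the same libraries. All 7 granulocyte rows found (of 11 symbols) were above 0 in every library, and their summed FPKM was 3528 in WT replicate 1, between 413 and 695 in the other WT libraries, and between 412 and 1269 in Leptin-overexpressing, the highest being replicate 2. The 10 monocyte rows summed to 664 to 1225 FPKM in WT, highest in replicate 1, and to 860 to 1384 FPKM in Leptin-overexpressing, highest in replicate 2. The 14 T cell genes summed to 1255 to 1679 FPKM in WT and to 1140 to 1915 FPKM in Leptin-overexpressing, with 11 of 14 lowest in Leptin-overexpressing replicate 2 and 0 of 14 lowest in WT replicate 1. The 11 NK and cytotoxic rows, with KLRD1 at 0 in some libraries, summed to 280 to 671 FPKM in WT and 409 to 636 FPKM in Leptin-overexpressing. Plasma cell genes (10 rows of 12 symbols) summed to 738 to 1146 FPKM in WT and 775 to 1023 FPKM in Leptin-overexpressing, with WT replicate 1 lowest. The 7 platelet rows, of which GP1BB was at 0 in 4 libraries, summed to 236 to 536 FPKM in WT and 177 to 509 FPKM in Leptin-overexpressing. The sum of the 2 erythroid rows was highest in WT replicate 1 (217 FPKM, against 21.8 to 102 FPKM in the other 5), with 1 of the 2 highest there. The 6 dendritic cell rows had their highest sum in Leptin-overexpressing replicate 2, with 521 FPKM, where 4 of 6 were highest. In WT replicate 1, 4 of the 6 dendritic cell rows were lowest, and their mean centred log2 value was -0.41 there, the lowest of the 6 libraries, as it was for the members. The 1 adipocyte gene found, LIPE, was at 6.08 to 12.4 FPKM. The part of these other cells in the low B cell values of WT replicate 1 was not tested.

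**Figure D4:**
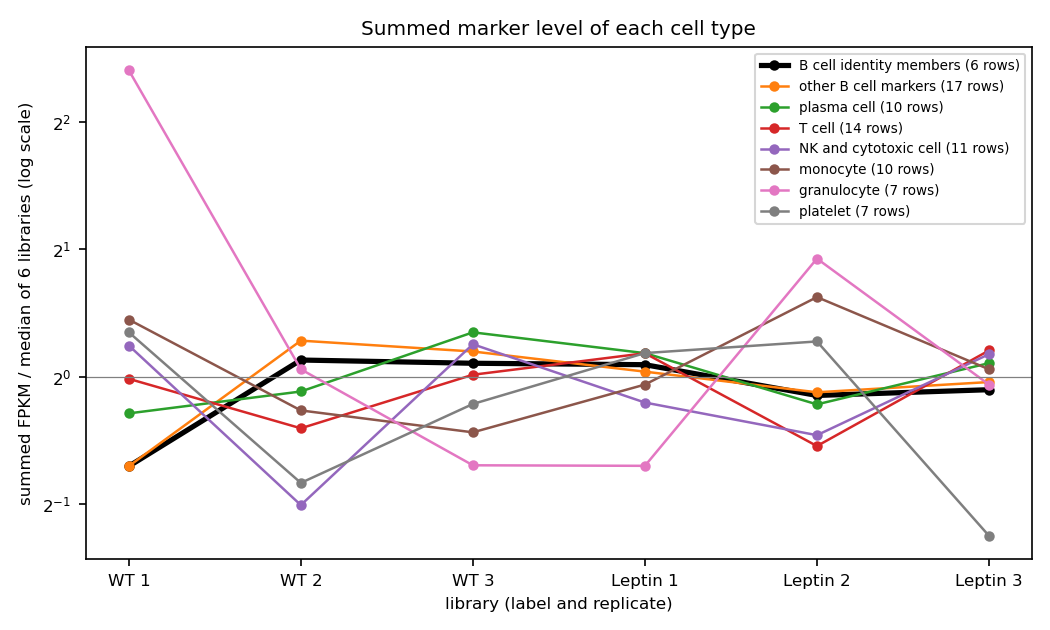
Summed FPKM of each marker list divided by its median over the 6 libraries, on a log2 axis, by library. The B cell identity genes (black) and the other B cell markers are lowest in WT replicate 1, where the granulocyte sum is highest at 3528 FPKM.

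The genes that carry the signal from CD79A and CD79B were described from a list of B cell receptor signalling. For this list, the transcription factors and the CD40 and BAFF genes, the part of the bulk PBMC RNA from B cells is unknown. Of its 30 symbols, 25 were found in 26 rows, SYK having 2. Of these 26 rows, 12 had a log2 fold change above 0 and 14 below, where 63.1% of all genes tested were above 0. Their median was -0.028, beside 0.059 over all genes tested. In limma 0 of the rows had an adjusted p under 0.05 (against 0.00932% of genes tested) and 0 an unadjusted one (against 3.18%). Without WT replicate 1, 5 were above 0 and 21 below (48.4% of genes tested were below), with a median of -0.10 beside 0.0066 over all genes tested. Leaving out both replicate 1 libraries gave again 5 and 21 (56.8% of genes tested below), with a median of -0.12 beside -0.032. Without WT replicate 2, WT replicate 3 or Leptin-overexpressing replicate 2 the median of the rows was 0.049, 0.045 or 0.042. Over all genes tested it was then 0.057, 0.11 or 0.10. LYN, the kinase that acts beside BLK, was at 138, 162 and 101.05 FPKM in WT and at 106, 161 and 115 FPKM in Leptin-overexpressing. The SYK row with a symbol (ENSSSCG00000021967) was at 58.8 to 68.3 FPKM in WT and 60.7 to 81.9 FPKM in Leptin-overexpressing, and the other (ENSSSCG00000009589, named by identifier) at 73.1 to 104 and 83.4 to 98.1 FPKM. Both rows lie close together on chromosome 14, from 2849306 to 2853767 and from 2866251 to 2869816, so reads of 1 gene may be divided between them and their levels are uncertain. BTK, the kinase lost in X-linked agammaglobulinemia, had 84.9 FPKM in WT replicate 1 and 121 to 145 FPKM in the other 5 libraries. BLNK, the adaptor that brings BTK to PLCG2, was likewise lowest in WT replicate 1 with 17.2 FPKM, against 26.1 to 40.5 FPKM elsewhere.

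PLCG2, the phospholipase at the end of this chain, was the 1 signalling row whose groups did not overlap (1 of 26, against 7.63% of genes tested). It was at 54.9, 54.3 and 58.2 FPKM in WT and at 45.0, 44.1 and 49.1 FPKM in Leptin-overexpressing. WT replicate 1 was not low for this gene, and every Leptin-overexpressing value was under every WT value. The cells that carried the PLCG2 RNA cannot be told apart in bulk PBMC RNA. The PLCG2 log2 fold change of -0.27 (95% interval -0.58 to 0.038) had an unadjusted p of 0.077 and an adjusted p of 0.993 in limma, and without both replicate 1 libraries it was -0.27.

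Among B cell transcription factors, 12 of 19 symbols were found, 4 above 0 and 8 below, where 63.1% of all genes tested were above 0. Their median log2 fold change was -0.10, beside 0.059 over all genes tested. In limma 0 of the 12 had an adjusted p under 0.05 (against 0.00932% of genes tested) and 0 an unadjusted one (against 3.18%). POU2AF1, the B cell coactivator of octamer-binding factors, was at 41.8, 64.2 and 73.0 FPKM in WT and at 61.7, 48.9 and 66.6 FPKM in Leptin-overexpressing. EBF1, which sets the B cell program with PAX5, was found by identifier at 2.38, 4.72 and 4.68 FPKM in WT and at 2.61, 2.66 and 3.32 FPKM in Leptin-overexpressing. WT replicate 1 lay under the 3 Leptin-overexpressing values of EBF1 and the other WT values lay above them. Without WT replicate 1, EBF1 had a log2 fold change of -0.57, with an unadjusted p of 0.0088 and an adjusted p of 0.99996 in limma. With all 6 libraries EBF1 was at -0.31, and at -0.19 without either WT replicate 2 or WT replicate 3. MEF2C, singled out after its values were seen, was at -0.31 with all 6 libraries, -0.50 without WT replicate 1 and -0.15 without WT replicate 2. EBF1 and MEF2C were the 2 of 12 genes with an unadjusted p under 0.05 once WT replicate 1 was left out, against 2.55% of genes tested. The median of this list was then -0.18, beside 0.0066 over all genes tested. The list's median was -0.23 without both replicate 1 libraries (beside -0.032) and 0.00062 without Leptin-overexpressing replicate 2 (beside 0.10). EBF1 was at -0.52 without both replicate 1 libraries.

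The genes around CD40 were described from a list of CD40 and BAFF signalling, BAFF being the survival factor of B cells. Of 19 symbols 13 were found, 2 above 0 and 11 below, where 63.1% of all genes tested were above 0. In limma 0 of the 13 had an adjusted p under 0.05, against 0.00932% of genes tested. Their median log2 fold change was -0.11, beside 0.059 over all genes tested. The list's median was -0.098 without WT replicate 1 (beside 0.0066) and -0.15 without both replicate 1 libraries (beside -0.032). It was 0.0043 without Leptin-overexpressing replicate 2 (beside 0.10) and -0.24 with the same FPKM total in every library (beside -0.053). CD40LG, the ligand of CD40 on T cells, was at 8.69, 6.60 and 11.6 FPKM in WT and 11.9, 6.74 and 13.98 FPKM in Leptin-overexpressing. TNFSF13B, the gene of BAFF, which myeloid cells make, was highest in WT replicate 1 with 42.5 FPKM and in Leptin-overexpressing replicate 2 with 37.2 FPKM, and was at 21.8 to 33.6 FPKM in the other 4. CD80, a costimulatory ligand that B cells display after CD40 engagement, was at 12.1, 16.0 and 16.4 FPKM in WT and at 10.1, 7.60 and 10.6 FPKM in Leptin-overexpressing. Each Leptin-overexpressing value of CD80 was under each WT value, WT replicate 1 included. For CD80 the log2 fold change came to -0.60 (95% interval -1.03 to -0.18), with an unadjusted p of 0.011 and an adjusted p of 0.993 in limma, and the exact permutation p was 0.1, the smallest possible. CD80 was the 1 gene of 13 with an unadjusted p under 0.05, against 3.18% of genes tested. Without WT replicate 1 CD80 was at -0.73, and without both replicate 1 libraries at -0.78. CD86, the related ligand, singled out after its values were seen, was at 26.8 to 30.3 FPKM in WT and 22.2 to 25.7 FPKM in Leptin-overexpressing. So 2 of the 13 genes, CD80 and CD86, did not overlap between groups, against 7.63% of genes tested. The cells that carried the RNA of either gene cannot be told apart in bulk PBMC RNA.

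**Figure D5:**
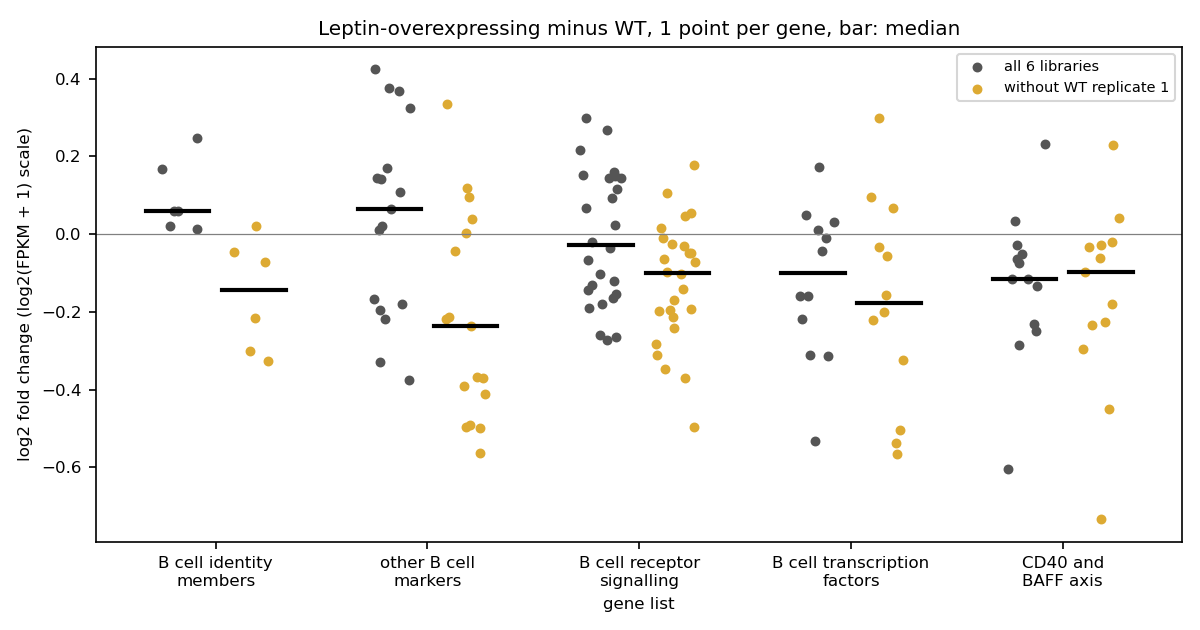
Log2 fold change of each gene of the B cell lists, Leptin-overexpressing minus WT on the log2(FPKM + 1) scale, with all 6 libraries (grey) and without WT replicate 1 (yellow), bars giving medians. The median of the 6 members moves from 0.060, a value that is below 0 with other scalings, to -0.14 and that of the other B cell markers from 0.065 to -0.24; CD80, at -0.60, is the lowest grey point of the CD40 and BAFF list.

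The genes whose profile over the 6 libraries was most like the mean of the members were ranked by the root mean square difference of centred log2(FPKM + 1) values. The 10 closest with a symbol were RMND5B, FADS3, COMMD2, NAA40, KLHL6, ZBTB18, CYB561A3, TRAF4, ETFA and DNAJC11, at differences of 0.041 to 0.065 log2 units, where the median over 10728 genes was 0.28. All 10 were lowest in WT replicate 1, and 0 of the 10 belonged to the B cell lists. RMND5B, the closest, was at 1.80, 3.60 and 3.40 FPKM in WT and 3.81, 2.74 and 3.06 FPKM in Leptin-overexpressing. KLHL6, a B cell ubiquitin ligase adaptor, was at 5.48, 9.21 and 9.37 FPKM in WT and 9.01, 7.59 and 8.82 FPKM in Leptin-overexpressing. In all, 113 genes were within 0.1 of the members' profile. The closest gene of the B cell lists was SWAP70, which ranked 27, and among the members CD79A was 0.058 from the mean of the other 5, while BLK was 0.26 and MS4A1 0.24 away. CD22 was 0.55 from the mean of the 6 members.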

How the data were processed

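Total RNA of PBMCs was sequenced as strand-specific paired-end libraries, 1 per pig. The authors deposited 1 FPKM value per gene and library. Their article names Bowtie, the Ensembl transcriptome and RSEM, while the submitters' processing notes name FastQC, STAR 2.5, Cuffnorm and DESeq 1.22.1, so the pipeline behind the values is uncertain. Their own fold change and p-value columns were not used. Every FPKM column matched 1 labelled sample (0 others).

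Fold changes and 95% intervals were fitted to log2(FPKM + 1) in R 4.3.3 by limma 3.58.1 with default moderation and the label as the only term. Genes reaching 1 FPKM in fewer than 3 libraries were left out, and Benjamini-Hochberg adjustment ran over the 10735 that stayed. Alternatives were a pseudocount of 0.1, other filters, 2 other scalings, unmoderated variance, a replicate block, and libraries left out. CD22 was set beside the members after seeing the data; with it their median log2 fold change was 0.059. The fit was tested on simulated data. Permutation tests used SciPy 1.17.1 under Python 3.11.15. Of 4000 rows without a symbol, 1504 were named by Ensembl identifier from a reference table, CD22 among them. Coordinates are those of the deposited table. The article names an Ensembl transcriptome release but no genome assembly, and no assembly is assigned to the coordinates here. Named genes were the members, the partner genes fixed with the lists (1 is not reported here), list genes with an unadjusted p under 0.05 and the 10 genes most like the members. CD81, SPIB and TNFRSF13C, also fixed, are not analysed here. The members and lists were chosen with earlier results of these data known. Precision rests on 3 libraries per label. An FPKM of 0 may be a failed estimate, as 74 genes have a 0 in 1 or more libraries yet reach 20 FPKM elsewhere.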

Additional observations from a re-analysis of the deposited data

How the results depend on the processing

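With median-of-ratios scaling the log2 fold changes of MS4A1, CD79A, BLK, CD40 and POU2AF1 turned to -0.0042, -0.0069, -0.046, -0.051 and -0.053, and with the same FPKM total in every library to -0.067, -0.070, -0.11, -0.11 and -0.12. Those scalings moved the median over all genes from 0.059 to 0.0022 and to -0.053. With both replicate 1 libraries left out, MS4A1, CD79A, CD79B, CR2, BLK and CD40 were at -0.34, -0.31, -0.098, -0.063, -0.22 and -0.33, and LYN, BTK, POU2AF1 and TNFSF13B at 0.090, -0.050, -0.26 and 0.085. That setting took the median of the members to -0.27, of the other B cell markers to -0.30 and of the transcription factors to -0.23, as the same FPKM total did for the last (-0.23). The cause of these turns was not tested. Leaving out 1 library at a time gave -0.33 to 0.35 for MS4A1, -0.22 to 0.23 for CD79A, -0.047 to 0.40 for CD79B, -0.13 to 0.23 for BLK, -0.30 to 0.23 for CD40, -0.70 to 0.29 for CD22, -0.20 to 0.057 for the SYK row named by identifier, -0.25 to 0.085 for LYN, -0.011 to 0.35 for BTK, -0.025 to 0.57 for BLNK and -0.22 to 0.17 for POU2AF1. CR2 kept its direction, from 0.021 to 0.30.

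Counts with an unadjusted p under 0.05 in limma were 1 and 3 for the other B cell markers (median-of-ratios scaling, both replicate 1 libraries left out), 1 for receptor signalling in each of those settings, with the same FPKM total and with unmoderated variance, 2 for the transcription factors without both replicate 1 libraries, and 2 for the CD40 and BAFF genes with the same FPKM total or unmoderated variance. Leaving out 1 library gave 0 to 3, 0 to 1 and 0 to 2 for the first 3 lists. Over all genes the same count was 416 with median-of-ratios scaling, 382 with the same FPKM total, 345 with unmoderated variance and 242 without both replicate 1 libraries. Over all genes the count with an adjusted p under 0.05 was 0 with the filter applied in every library, with unmoderated variance and without both replicate 1 libraries, and 0 to 3 when 1 library was left out, where the unadjusted count was 247 to 846 (846 without WT replicate 3). The replicate numbers come from different animals, and correlations of same-numbered deviations from the label means were -0.284, 0.135 and -0.00728. Deviations of 3 libraries from their own mean sum to 0, so these correlations cannot tell whether same-numbered libraries shared a batch. With a replicate block, 2 genes had an adjusted p under 0.05, against 1 without it, 384 against 341 an unadjusted one, and 1 transcription factor an unadjusted one, and no member was called. Depth is unknown, and 3 libraries per label limit what can be seen.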

Other observations

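Leptin-overexpressing replicate 2, the library with the lowest CD22 and BLK, held the lowest value of 25.4% of all genes tested. It was lowest for 3 of the 17 other B cell markers, 10 of the 26 receptor signalling rows, 4 of the 12 transcription factors and 7 of the 13 CD40 and BAFF genes, and highest for 3, 5, 1 and 0 of them. The genes that follow were singled out after their values were seen. IKZF3, the lymphoid factor Aiolos, was at 9.34 FPKM there and at 19.1 to 25.6 FPKM in the other 5 libraries. TNFRSF17, the plasma cell receptor BCMA, was at 7.60 FPKM against 12.3 to 19.5 FPKM, and BACH2, a repressor of plasma cell fate, at 1.86 FPKM against 2.85 to 4.72 FPKM. In the same library CD79B and MS4A1 were at 189.7 and 88.2 FPKM, inside the range of the others. CD180, CD83 and TLR9 of the other B cell markers were highest in it. SPI1, the myeloid and B cell factor PU.1, was highest there with 1062 FPKM, against 625 to 833 FPKM.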
